A study of Sus scrofa with 24 samples.

Results

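The genes of cholesterol synthesis were followed in the ovaries of Chenghua sows, a pig breed, from the first days of life to late pregnancy. The gene set was a list of 29 symbols covering acetyl-CoA supply, the enzymes from acetoacetyl-CoA to cholesterol, the SREBP regulators, a sterol carrier and a ligase that marks lipoprotein receptors for breakdown. Of these, 26 were found by symbol among the 18753 genes of the deposited table, and the symbols ERG28, IDI1 and CYP51A1 were not among its symbols. All 26 passed the filter on low counts, which kept 15699 genes. Messenger RNA was sequenced from 12 ovaries, each from a separate healthy sow, with 3 sows at each of 4 stages: postnatal day 3 (Day 3), postnatal day 120 at the onset of puberty (Puberty), 1 year of age in sexual maturity (Year 1) and day 105 of pregnancy (Pregnancy). No treatment is named for any group, the sows were housed and fed alike, and the age of the pregnant sows was not given in the sources used here. Pieces of whole ovary were used, and the cycle phase and the share of follicles or corpora lutea in a piece were not given in the sources used here.

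Cholesterol is made from acetyl-CoA by way of mevalonate, farnesyl diphosphate, squalene and lanosterol, and the last enzymes trim and reduce lanosterol to cholesterol. The pathway is set by SREBP transcription factors, which SCAP carries from the endoplasmic reticulum to the Golgi when sterols are low and which INSIG proteins hold back when sterols are high. In the ovary cholesterol is the precursor of all steroid hormones, and the steroid-making cells of the corpus luteum take it up from lipoproteins as well as making it.

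Library totals were 14615493 to 16187916 counts, and a single gene of the set received between 86 counts (STARD4) and 16106 counts (HMGCS1). Levels are given as TPM (a level per transcript length, scaled to the same sum in every library), and changes as log2 differences of counts scaled by TMM, a scaling that sets the bulk of genes equal between libraries. TMM factors ran from 0.752 in Year 1 replicate 2 to 1.26 in Day 3 replicate 2. TPM and TMM therefore set the stages at different heights: the median log2 change of all genes in Year 1 against Day 3 was 0.03 on TMM-scaled counts and -0.64 on log2(TPM + 1). Oocyte marker genes, 9 in all, summed to 1376 to 2347 TPM at Day 3 and to 23.9 to 228 TPM in the other libraries. In these bulk samples fewer cells of a type and less RNA per cell cannot be told apart.

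Most of the 26 genes had their highest TPM in the same 3 adult ovaries, and PMVK, GGPS1, FDFT1, LBR, NSDHL, HSD17B7, SREBF1, SREBF2, INSIG2 and MYLIP departed from this order. Summed over the 26 genes, the level was 1169, 1346 and 1474 TPM at Day 3, and 975, 920.4 and 823 TPM at Puberty. It was 1163, 5488 and 5800.1 TPM in Year 1 replicates 1, 2 and 3. In Pregnancy it was 753, 724 and 3678 TPM. Year 1 replicates 2 and 3 and Pregnancy replicate 3 thus stood above the other 9 libraries, and the remaining Year 1 library lay within the Day 3 and Puberty range. In TPM these 3 libraries were the 3 highest for 16 of the 26 genes. The same 3 were highest for 897 of 15209 genes with a mean count of at least 10 (5.90%).

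**Figure D1:**
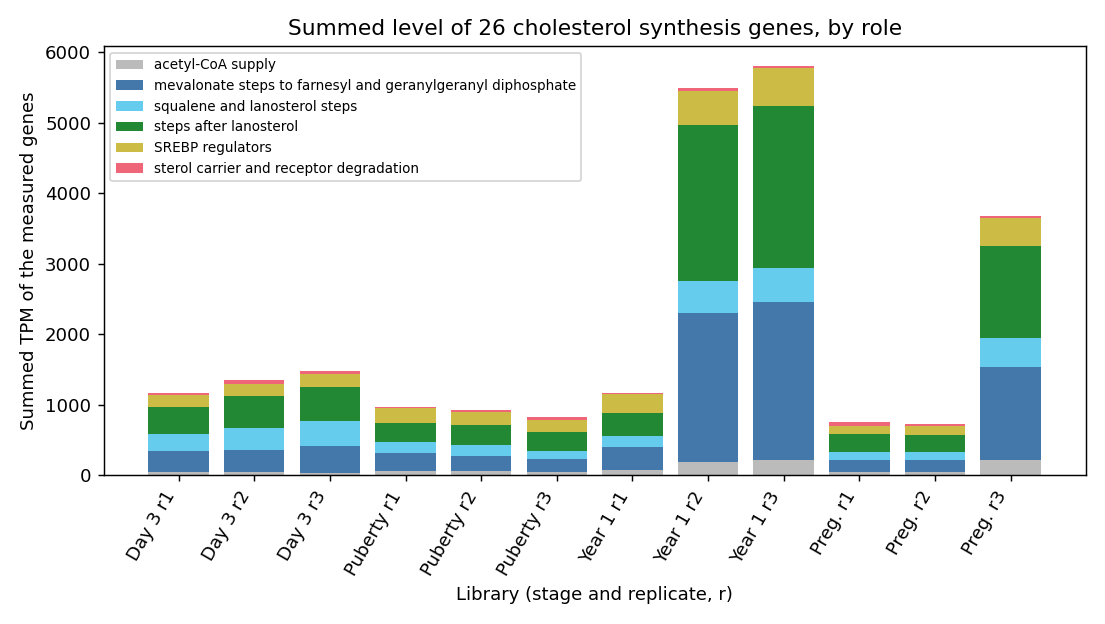
Summed TPM of the 26 measured cholesterol synthesis genes (y axis) in each of the 12 libraries (x axis), with the bar split by role. Year 1 replicates 2 and 3 reach 5488 and 5800.1 TPM and Pregnancy replicate 3 reaches 3678 TPM, while the other 9 libraries lie between 724 and 1474 TPM.

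The 3 high libraries were also those with high levels of luteal steroid genes. STAR, which moves cholesterol into mitochondria, was at 50.7, 5294 and 5107 TPM in the Year 1 libraries and at 5.88, 11.8 and 3949 TPM in the Pregnancy libraries. CYP11A1, which makes pregnenolone from cholesterol, was at 263, 4244 and 4439 TPM in Year 1 and at 119, 159 and 4869 TPM in Pregnancy. HSD3B1, the next enzyme on the way to progesterone, had a level of 355, 11031 and 8606 TPM in Year 1 and of 142, 145 and 8474 TPM in Pregnancy. The whole list of 8 markers of luteal and steroid-making cells summed to 236 to 265 TPM at Day 3, 1152 to 1956 TPM at Puberty, 1793 to 26038 TPM in Year 1 and 592 to 73141 TPM in Pregnancy. Most of the 73141 TPM, the sum in Pregnancy replicate 3, came from list members other than STAR, CYP11A1 and HSD3B1. STAR and HSD3B1 were lower in that library than in Year 1 replicates 2 and 3. RLN2, another member of the list, was at 0 in some library. The 10 granulosa cell markers went the other way within Year 1, with sums of 13423, 686 and 896 TPM in replicates 1, 2 and 3, and the 5 theca cell markers summed to 4239, 42.3 and 39.5 TPM there. Within Pregnancy the granulosa sums were 1071, 1198 and 974 TPM and the theca sums 1857, 1376 and 473 TPM in replicates 1, 2 and 3. Pregnancy replicate 3 also had the highest sums of 7 macrophage markers, 1649.5 TPM against 606 and 799 TPM in its stage mates, and of 5 erythrocyte markers, 2048 TPM against 293 and 284 TPM. The part of cell makeup in the results below was not tested.

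**Figure D2:**
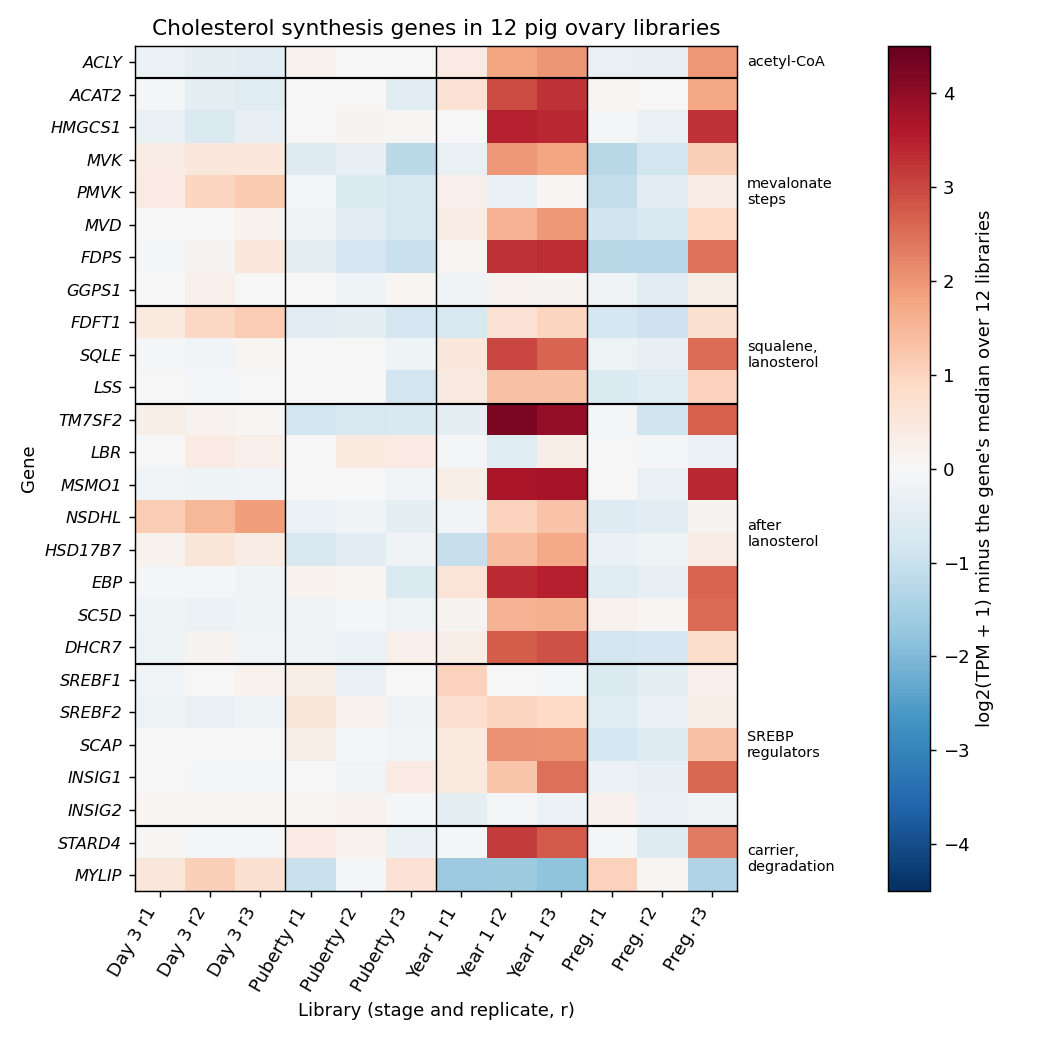
Log2(TPM + 1) of each of the 26 genes (rows, grouped by role) in each of the 12 libraries (columns), as the difference from that gene's median over the 12 libraries. Year 1 replicates 2 and 3 and Pregnancy replicate 3 are above the median for most enzymes, whereas PMVK, LBR, INSIG2 and MYLIP do not follow that pattern.

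ACLY (chromosome 12, 20796678 to 20841301, Sscrofa11.1), which makes cytosolic acetyl-CoA from citrate, was at 44.8, 40.3 and 39.0 TPM at Day 3 and at 60.9, 55.9 and 53.3 TPM at Puberty. Its level was 70.9, 191 and 217 TPM in Year 1 and 43.1, 42.0 and 214 TPM in Pregnancy. Its 3 high libraries lay between 191 and 217 TPM, and no other library passed 70.9 TPM.

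Of the 7 measured genes of the mevalonate steps, 5 had these 3 libraries on top in TPM (ACAT2, HMGCS1, MVK, MVD and FDPS). HMGCS1 (chromosome 16, 27936225 to 27957261), which makes HMG-CoA, was at 30.8, 24.3 and 29.4 TPM at Day 3 and at 38.7, 42.4 and 39.4 TPM at Puberty. In Year 1 it was at 38.1, 436 and 412 TPM, and in Pregnancy at 36.9, 31.4 and 374 TPM. Year 1 replicate 1 was thus at the Puberty level in TPM, and both of its stage mates were far above it. FDPS (chromosome 4, 94500140 to 94514820), which makes farnesyl diphosphate, was the most abundant gene of the set in those libraries. Its level was 118, 132 and 174 TPM at Day 3 and 93.2, 72.9 and 60.03 TPM at Puberty. It was 127, 1180.5 and 1242 TPM in Year 1, and 50.5, 49.6 and 670.5 TPM in Pregnancy. The range within Pregnancy, 13.5-fold, was the widest of the 26 genes at that stage.

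ACAT2 (chromosome 1, 7600616 to 7612861), which joins acetyl-CoA units to acetoacetyl-CoA, was at 28.2, 22.1 and 20.1 TPM at Day 3 and at 29.7, 30.5 and 21.3 TPM at Puberty. It was at 48.1, 234 and 295 TPM in Year 1 and at 32.1, 29.5 and 104 TPM in Pregnancy. ACAT2 overlaps TCP1 in the annotation, and strand use in counting was not given in the sources used here, so its reads could in part be those of TCP1. MVK, the mevalonate kinase, was at 37.2, 40.9 and 40.8 TPM at Day 3 and at 19.1, 22.3 and 12.01 TPM at Puberty. It was at 22.8, 116 and 103 TPM in Year 1 and at 11.6, 16.0 and 62.0 TPM in Pregnancy. MVK was therefore higher in every Day 3 library than in every Puberty library. MVD, which decarboxylates mevalonate diphosphate, was at 40.2, 39.0 and 44.7 TPM at Day 3, 35.6, 28.2 and 23.8 TPM at Puberty, 49.6, 118 and 155 TPM in Year 1 and 21.0, 23.8 and 75.1 TPM in Pregnancy.

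PMVK and GGPS1 lay outside this pattern in TPM. PMVK, the phosphomevalonate kinase between MVK and MVD, was at 33.8, 51.0 and 59.3 TPM at Day 3 and between 11.8 and 33.1 TPM in the other 9 libraries, and it overlaps KCNN3 in the annotation. GGPS1, which makes the geranylgeranyl diphosphate used for protein prenylation, was at 8.71, 10.4 and 8.54 TPM at Day 3, 8.64, 7.56 and 9.23 TPM at Puberty, 7.67, 9.84 and 9.49 TPM in Year 1 and 7.64, 5.92 and 10.7 TPM in Pregnancy. GGPS1 had nearly flat TPM over all 12 libraries.

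The 3 genes of the squalene and lanosterol steps differed from each other. SQLE (chromosome 4, 14669789 to 14700152), the squalene epoxidase, was at 13.2, 12.8 and 14.5 TPM at Day 3 and at 14.01, 14.2 and 12.3 TPM at Puberty. It was at 19.7, 119 and 91.1 TPM in Year 1 and at 12.03, 10.7 and 84.9 TPM in Pregnancy. LSS, which closes the ring of lanosterol and lies on an unplaced scaffold of the assembly, was at 47.2, 46.6 and 49.1 TPM at Day 3, 48.6, 48.2 and 25.9 TPM at Puberty, 64.7, 121 and 123 TPM in Year 1 and 30.7, 33.3 and 101 TPM in Pregnancy. SQLE thus ranged over 6.03-fold within Year 1 and LSS over 1.90-fold. FDFT1 (chromosome 14, 14976259 to 15010701), the squalene synthase, was about as high in TPM at Day 3 as in the high adult libraries, though not in scaled counts (142 to 231 CPM against 264 to 348 CPM). It was at 178, 254 and 296 TPM at Day 3, 93.9, 98.2 and 78.3 TPM at Puberty, 80.1, 208 and 261 TPM in Year 1 and 75.5, 69.6 and 212 TPM in Pregnancy.

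After lanosterol, 8 enzymes were measured. TM7SF2 (chromosome 2, 7076778 to 7081502), a sterol C14 reductase, had the widest range within a stage: it was at 16.8, 455 and 371 TPM in Year 1, a 27.1-fold range. It was at 28.0, 25.5 and 23.9 TPM at Day 3, 12.2, 13.6 and 14.1 TPM at Puberty and 22.3, 11.9 and 153 TPM in Pregnancy. Its level in Year 1 replicate 1 was below every Day 3 library. MSMO1 (chromosome 8, 43726834 to 43745784), the C4 methyl oxidase, was at 38.2, 36.3 and 38.2 TPM at Day 3, 42.6, 41.4 and 38.3 TPM at Puberty, 51.3, 542 and 567 TPM in Year 1 and 42.4, 33.4 and 445 TPM in Pregnancy. EBP (chromosome X, 42670592 to 42678571), the sterol isomerase, was at 58.9, 58.5 and 56.1 TPM at Day 3, 69.1, 65.7 and 39.7 TPM at Puberty, 93.3, 642 and 709 TPM in Year 1 and 42.1, 48.5 and 386 TPM in Pregnancy. Both genes kept the same 3 libraries on top.

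DHCR7 and SC5D differed from each other in the order of the 3 high libraries. DHCR7 (chromosome 2, 2377352 to 2391846), which makes cholesterol from 7-dehydrocholesterol, was at 28.4, 36.7 and 30.9 TPM at Day 3, 30.3, 27.8 and 39.9 TPM at Puberty, 41.4, 227 and 249.9 TPM in Year 1 and 18.5, 19.4 and 59.4 TPM in Pregnancy. SC5D (chromosome 9, 48357115 to 48372391), the sterol C5 desaturase one step earlier, was at 18.8, 17.8 and 19.0 TPM at Day 3, 19.6, 21.2 and 18.4 TPM at Puberty, 24.1, 66.2 and 68.7 TPM in Year 1 and 24.3, 22.3 and 131 TPM in Pregnancy. DHCR7 was therefore lower in Pregnancy replicate 3 than in Year 1 replicates 2 and 3, while SC5D was higher there. SC5D overlaps LOC106504896 in the annotation. HSD17B7, a 3-ketosterol reductase that also acts on estrone, was at 57.9, 76.6 and 66.3 TPM at Day 3, 31.0, 36.6 and 46.4 TPM at Puberty, 24.9, 139 and 170 TPM in Year 1 and 42.4, 45.5 and 66.1 TPM in Pregnancy. Its level in Pregnancy replicate 3 lay below Day 3 replicates 2 and 3 in TPM, though not in scaled counts (48.5 CPM against 32.3 and 28.9 CPM).

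NSDHL (chromosome X, 123906130 to 123921935), which acts with MSMO1 in removing the C4 methyl groups, had its highest TPM at Day 3, although in scaled counts Year 1 replicates 2 and 3 (151 and 168 CPM) lay above every Day 3 library (87.4 to 144 CPM). It was at 141, 180.4 and 236 TPM at Day 3 and at 52.7, 56.1 and 46.5 TPM at Puberty. It was at 58.4, 132 and 154 TPM in Year 1 and at 42.4, 43.6 and 68.5 TPM in Pregnancy. The Day 3 libraries did not overlap those of Puberty or Pregnancy. Day 3 replicate 3, the highest in TPM for NSDHL, FDFT1 and PMVK, also had the highest summed oocyte marker level, 2347 TPM. In scaled counts Year 1 replicate 3 was highest for NSDHL and FDFT1, at 168 and 348 CPM against 144 and 231 CPM in Day 3 replicate 3. The part of oocyte content in these levels was not tested. LBR, the other sterol C14 reductase and an anchor of chromatin at the nuclear envelope, was at 12.2, 15.9 and 14.4 TPM at Day 3, 11.95, 16.6 and 15.8 TPM at Puberty, 11.58, 8.07 and 14.95 TPM in Year 1 and 11.9, 11.8 and 9.84 TPM in Pregnancy.

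**Figure D3:**
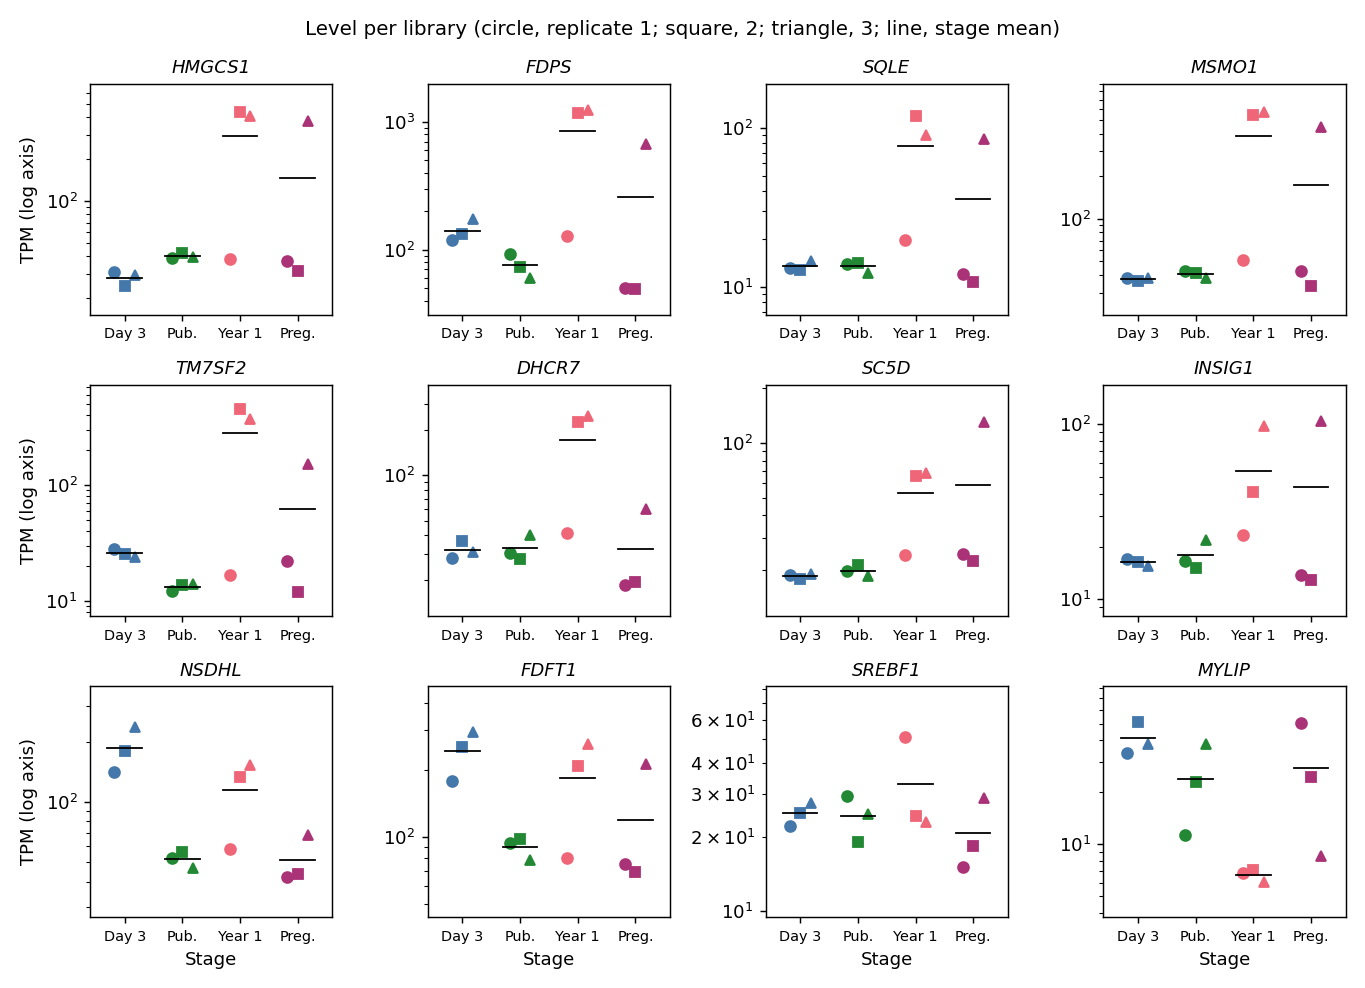
TPM (log axis) of 12 of the genes in every library, by stage, with a marker shape for each replicate and a line at the stage mean. Within Year 1, replicate 1 (circle) lies far below replicates 2 and 3 for HMGCS1, FDPS, SQLE, MSMO1, TM7SF2 and DHCR7, and within Pregnancy replicate 3 (triangle) stands alone on top for the same genes. SREBF1 has its highest library in Year 1 replicate 1, and MYLIP is at 6.04 to 7.11 TPM in all 3 Year 1 libraries.

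Among the regulators, SREBF2 (chromosome 5, 6719484 to 6784724), whose product SREBP-2 drives cholesterol genes, was at 43.5, 40.8 and 44.2 TPM at Day 3, 75.9, 57.9 and 45.8 TPM at Puberty, 88.7, 102 and 97.8 TPM in Year 1 and 35.0, 41.4 and 63.7 TPM in Pregnancy. Unlike the enzymes, it was even within Year 1, and all 3 Year 1 libraries lay above the other 9. SREBF1 (chromosome 12, 60733967 to 60750951), whose product SREBP-1 acts mainly on fatty acid genes, was at 22.2, 25.1 and 27.5 TPM at Day 3, 29.4, 19.1 and 24.7 TPM at Puberty, 51.1, 24.3 and 23.0 TPM in Year 1 and 15.1, 18.4 and 28.7 TPM in Pregnancy. SCAP (chromosome 13, 30253262 to 30320625), the SREBP escort, was at 71.4, 74.6 and 71.5 TPM at Day 3, 87.2, 70.9 and 67.2 TPM at Puberty, 99.4, 304 and 301 TPM in Year 1 and 41.6, 48.1 and 185 TPM in Pregnancy. SCAP followed the enzymes rather than SREBF2 in its order of libraries.

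INSIG1 (chromosome 18, 2885494 to 2898758), a sterol-dependent retention protein that is itself an SREBP target, was at 16.96, 16.3 and 15.6 TPM at Day 3, 16.6, 15.2 and 21.8 TPM at Puberty, 23.3, 40.8 and 97.7 TPM in Year 1 and 13.7, 12.8 and 104 TPM in Pregnancy. Year 1 replicates 2 and 3, close to each other for most enzymes, differed by 1.18 in log2 CPM (counts relative to the scaled library total) for INSIG1, the widest gap between them in the set. INSIG2, its relative, was between 10.3 and 16.1 TPM in all 12 libraries. STARD4 (chromosome 2, 116235821 to 116257143), a carrier of cholesterol between membranes, was at 2.71, 2.42 and 2.41 TPM at Day 3, 3.68, 3.07 and 1.96 TPM at Puberty, 2.41, 30.7 and 23.4 TPM in Year 1 and 2.50, 1.41 and 17.4 TPM in Pregnancy, and it overlaps LOC102158757. MYLIP (chromosome 7, 12117240 to 12137934), the ligase that sends lipoprotein receptors to lysosomes and is induced when sterols are high, was at 33.7, 51.3 and 38.2 TPM at Day 3, 11.3, 22.9 and 37.9 TPM at Puberty, 6.87, 7.11 and 6.04 TPM in Year 1 and 50.2, 24.5 and 8.60 TPM in Pregnancy. MYLIP ran opposite to the enzymes in Pregnancy, with its lowest level there in replicate 3.

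Differences among the 4 stages passed an adjusted p of 0.05 for 19 of the 26 genes in edgeR's quasi-likelihood test, which was fitted to all genes with Benjamini-Hochberg adjustment, beside 46.0% of all genes tested. The 7 genes that did not pass were PMVK, GGPS1, FDFT1, LBR, INSIG1, INSIG2 and MYLIP. The count was 7 without Day 3 replicate 1, 2 or 3 (beside 31.1%, 28.7% and 30.5% of all genes), 8 without Year 1 replicate 2 (37.9%) and 5 without Year 1 replicate 3 (33.9%).

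Year 1 against Day 3 held most of the calls. In edgeR's test 19 genes were higher and 1 was lower at an adjusted p under 0.05, beside 48.0% of all genes called, 24.0% higher and 24.0% lower. The median log2 change of the 26 genes was 2.29 against 0.03 over all genes. The acetyl-CoA gene, 5 of 7 mevalonate genes, 2 of 3 squalene and lanosterol genes, 6 of 8 later enzymes, 4 of 5 regulators and STARD4 rose, and MYLIP fell. The largest log2 changes of scaled counts were 4.33 ± 1.21 (SE, n = 3 per stage, edgeR adjusted p = 0.0137) for TM7SF2, 4.29 ± 1.13 (edgeR adjusted p = 0.0106) for HMGCS1 and 4.16 ± 1.13 (edgeR adjusted p = 0.0121) for MSMO1. These are rises of 20.1-fold, 19.6-fold and 17.8-fold. The Year 1 libraries were all above the Day 3 libraries in scaled counts for 18 genes, the uncalled INSIG2 among them, and all below for MYLIP, beside 28.0% and 30.9% of all genes. TM7SF2 and HSD17B7 were called although their lowest Year 1 library fell within or below the Day 3 range.

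SREBF2 had the lowest adjusted p of the set in this comparison, with a rise of 1.96 ± 0.30 in log2 scaled counts (SE, edgeR adjusted p = 0.000736). ACAT2 rose by 3.90 ± 0.74 (edgeR adjusted p = 0.00212), EBP by 3.91 ± 1.00 (edgeR adjusted p = 0.00911), DHCR7 by 3.29 ± 0.70 (edgeR adjusted p = 0.00373) and SQLE by 3.36 ± 0.90 (edgeR adjusted p = 0.0112). ACLY, SCAP, MVD, LSS, SREBF1, STARD4, SC5D, FDPS, INSIG1, GGPS1 and HSD17B7 rose by between 0.77 and 3.64. MYLIP fell by 1.82 with an SE of 0.55 (edgeR adjusted p = 0.0201). The rise of GGPS1, 0.77 ± 0.26 (edgeR adjusted p = 0.0339), turned to -0.03 on log2(TPM + 1). On that scale 9 genes were called higher and 1 lower, beside 1023 higher and 7977 lower over all genes (3767 and 3765 on scaled counts), and the TPM of the 2 stages overlapped for 6 of the called genes (FDPS, GGPS1, HSD17B7, SREBF1, STARD4 and TM7SF2). MVK, at 1.87 ± 0.71, missed the threshold (edgeR adjusted p = 0.0506), as did PMVK, FDFT1, NSDHL, LBR and INSIG2.

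Of these 20 calls, 11 held in each of 12 fits that left out 1 library: ACLY, ACAT2, HMGCS1, MVD, SQLE, LSS, MSMO1, EBP, DHCR7, SREBF2 and SCAP. FDPS and GGPS1 were not called without any 1 of the Day 3 libraries or without Year 1 replicate 2 or 3, with adjusted p up to 0.0843 and 0.106 in edgeR. INSIG1 and SC5D lost the call without any 1 of the Day 3 libraries or Year 1 replicate 3, with edgeR adjusted p up to 0.108 and 0.0601. HSD17B7 lost it without any 1 Day 3 library, Puberty replicate 1 or 2, or Year 1 replicate 2 or 3, with edgeR adjusted p up to 0.136. TM7SF2 and STARD4 lost it without Day 3 replicate 2 or 3, MYLIP without Day 3 replicate 2 or Year 1 replicate 3, and SREBF1 without Day 3 replicate 1, with edgeR adjusted p up to 0.0508, 0.0602, 0.0618 and 0.0581. The number of genes called was 12 without Day 3 replicate 2 and 13 without Day 3 replicate 3, beside 35.2% and 36.7% of all genes. A library outside a comparison acts on it through the estimate of spread, which all stages shared.

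**Figure D4:**
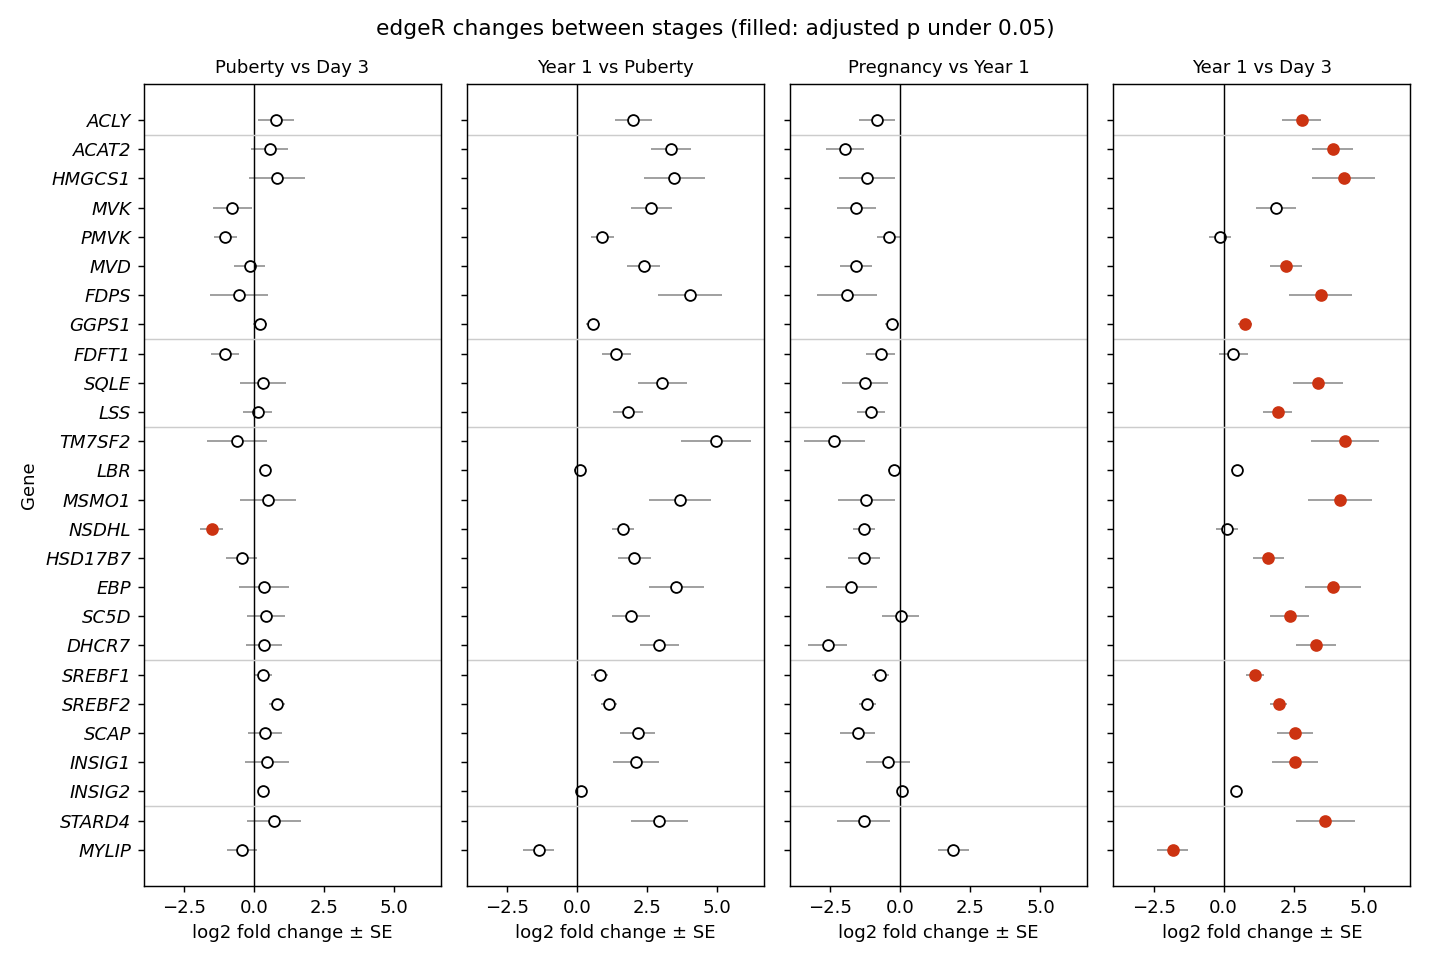
Log2 change of TMM-scaled counts with its SE (x axis) for each of the 26 genes (y axis) in 4 comparisons of stages, from 3 libraries per stage. Filled points passed an adjusted p of 0.05 in edgeR: 1 in Puberty against Day 3, none in Year 1 against Puberty or in Pregnancy against Year 1, and 20 in Year 1 against Day 3.

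Between Day 3 and Puberty 1 of the 26 genes was called, and it was lower at Puberty, beside 28.7% of all genes called and 17.2% called lower. NSDHL fell by 1.52 with an SE of 0.40 in log2 scaled counts (n = 3 per stage, edgeR adjusted p = 0.0174), a 2.86-fold difference without overlap between the stages. The call was lost without Day 3 replicate 3, Puberty replicate 2 or Puberty replicate 3, with edgeR adjusted p up to 0.0598. PMVK had a log2 change of -1.02 ± 0.40 (edgeR adjusted p = 0.0819), FDFT1 of -1.04 ± 0.51 (edgeR adjusted p = 0.149) and SREBF2 of 0.83 ± 0.29 (edgeR adjusted p = 0.0556). The libraries of the stages did not overlap in scaled counts for 15 genes, 9 higher and 6 lower at Puberty, beside 30.2% and 31.4% of all genes. The median log2 change of the 26 genes was 0.32 on scaled counts, against 0.04 over all genes, and -0.03 on log2(TPM + 1), against -0.26 over all genes. With log2(TPM + 1) the 3 genes called were NSDHL, PMVK and FDFT1, all lower. When only these 2 stages were fitted 11 genes were called, 6 higher and 5 lower, beside 51.2% of all genes.

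From Puberty to Year 1 no gene of the set was called by edgeR at an adjusted p under 0.05, beside 0.0255% of all genes, or 4 genes (0.00637% higher and 0.0191% lower). Before adjustment, 23 of the 26 had an edgeR p under 0.05, against 31.2% of all genes. DESeq2 called 16 and limma's voom with quality weights called 24 of the 26, beside 21.0% and 59.6% of all genes. Changes were positive for 25 of the 26 genes (23 on log2(TPM + 1), where LBR and INSIG2 turned negative), with a median log2 change of 2.07 against -0.03 over all genes, and the edgeR adjusted p ran from 0.0624 for ACAT2 to 0.772 for LBR. TM7SF2 had a log2 change of 4.95 ± 1.24 (edgeR adjusted p = 0.0645), FDPS of 4.02 ± 1.15 (edgeR adjusted p = 0.0699) and MYLIP of -1.38 ± 0.54 (edgeR adjusted p = 0.121). All 3 Year 1 libraries were above all 3 Puberty libraries in scaled counts for 19 genes and below them for MYLIP, beside 14.2% and 16.7% of all genes. In that count Year 1 replicate 1 was above Puberty by little: its median difference from the Puberty libraries over the 26 genes was 0.41, 0.55 and 0.68 in log2 CPM. Without Year 1 replicate 1 the edgeR count was 21, beside 38.3% of all genes, and without Pregnancy replicate 3, which belongs to neither stage, it was also 21, beside 16.7%.

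The authors' deposited table has a q-value under 0.05 for 20 of the 26 genes in Year 1 against Puberty, 19 higher and 1 lower, beside 11% of genes with a q-value in that comparison. The authors' deposited table has 20 such genes in Year 1 against Day 3 (beside 46.4%), 12 in Puberty against Day 3 (45.9%), 10 in Pregnancy against Day 3 (39.1%), 2 in Pregnancy against Year 1 (4.37%) and 0 in Pregnancy against Puberty (0.456%).

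The lack of calls between Puberty and Year 1 sat beside a wide spread within Year 1. Year 1 replicate 2 was above replicate 1 by more than 1 in log2 CPM for 19 of the 26 genes, beside 18.6% of all genes, and replicate 3 was above replicate 1 by more than 1 for 19 genes, beside 15%. Pregnancy replicate 3 was above Pregnancy replicate 1 by more than 1 for 19 genes and above replicate 2 for 18 genes, beside 15.4% and 14.7% of all genes. Pregnancy replicates 1 and 2 differed by a median of -0.03 over the 26 genes, and Year 1 replicates 2 and 3 by -0.02. The median SD of the 26 genes within a stage was 0.14 at Day 3, 0.24 at Puberty, 1.10 in Year 1 and 1.16 in Pregnancy, and over all genes it was 0.18, 0.25, 0.48 and 0.41. These within-stage differences are single ovaries and carry no test. The ratio of highest to lowest TPM passed 4-fold for 12 genes within Year 1 and for 13 within Pregnancy, and for none at Day 3 or Puberty. The matching count over all genes was not made.

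In Pregnancy against Year 1 no gene of the set was called by edgeR, beside 2.96% of all genes, 1.34% higher and 1.62% lower. Before adjustment, 10 of the 26 had an edgeR p under 0.05, against 27.9% of all genes, and DESeq2 called 6 (1 higher, 5 lower, beside 18.4% of all genes) and limma's voom with quality weights 24 (1 higher, 23 lower, beside 56.2%). Changes were negative for 23 genes, with a median log2 change of -1.20 against 0.05 over all genes. The median was -2.22 without Pregnancy replicate 3 and -0.79 and -0.80 without Pregnancy replicate 1 or 2, and -2.56 with voom. SREBF2 had a log2 change of -1.18 ± 0.29 (edgeR adjusted p = 0.0531) and DHCR7 of -2.60 ± 0.68 (edgeR adjusted p = 0.0586), and MYLIP of 1.89 ± 0.55 (edgeR adjusted p = 0.0699). SREBF2 and MYLIP were the genes whose libraries did not overlap between these stages, 1 lower and 1 higher, beside 9.03% and 10.7% of all genes. Without Pregnancy replicate 3 the edgeR count was 20, beside 18.3% of all genes, and without Year 1 replicate 1 it was 9, beside 30.6%.

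The high Pregnancy library was not a copy of the high Year 1 libraries. Pregnancy replicate 3 was below Year 1 replicate 2 by a median of 0.52 and below replicate 3 by a median of 0.46 in log2 CPM over the 26 genes. DHCR7 was 2.14 and 2.20 lower there on that scale, the widest gap among the 26 genes. INSIG1 was 1.15 higher than in Year 1 replicate 2, and SC5D 0.80 higher than in Year 1 replicate 3. ACLY, at 214 TPM, lay between the 191 and 217 TPM of those Year 1 libraries. In scaled counts it was below both, at 751 CPM against 777 and 833 CPM.

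Against Day 3, Pregnancy had 4 called genes, 3 higher and 1 lower, beside 34.0% of all genes. SC5D rose by 2.36 ± 0.70 in log2 scaled counts (n = 3 per stage, edgeR adjusted p = 0.0246), HMGCS1 by 3.11 ± 1.07 (edgeR adjusted p = 0.0456) and ACLY by 1.95 ± 0.66 (edgeR adjusted p = 0.0439). NSDHL fell by 1.18 with an SE of 0.40 (edgeR adjusted p = 0.0414). All 4 calls were lost without any 1 Day 3 library. The 3 rises were also lost without Pregnancy replicate 3, with log2 changes of 0.92, 0.90 and 0.63 and edgeR adjusted p of 0.117, 0.386 and 0.285. HMGCS1 and ACLY were in addition lost without any 1 Puberty library or Year 1 replicate 3, and NSDHL without any 1 Puberty library or Pregnancy replicate 1 or 2. Leaving out Year 1 replicate 1 gave 12 called genes (beside 44% of all genes), Pregnancy replicate 1 gave 7 (28.7%) and Pregnancy replicate 2 gave 9 (29.5%). Leaving out Pregnancy replicate 3 or Year 1 replicate 3 gave 2, any 1 Puberty library 1 and any 1 Day 3 library 0, beside 20.8% to 32.7% of all genes. On log2(TPM + 1) NSDHL and PMVK were called, both lower, and 12 of the 26 genes changed sign: MVK, MVD, FDPS, GGPS1, LSS, LBR, HSD17B7, DHCR7, SREBF1, SCAP, INSIG2 and MYLIP.

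In Pregnancy against Puberty no gene of the set and none of the 15699 genes was called by edgeR, a share of 0.0%. Before adjustment, 3 of the 26 had an edgeR p under 0.05, against 7.36% of all genes, and DESeq2 and limma's voom with quality weights each called 0. The median log2 change was 0.77 against 0.02 over all genes, and it was -0.09 without Pregnancy replicate 3 and -0.03 with voom. The Pregnancy libraries were all above the Puberty libraries in scaled counts for 4 genes (ACAT2, TM7SF2, HSD17B7 and SC5D) and all below for 0, beside 6.4% and 6.16% of all genes. HMGCS1, for example, was at 38.7 to 42.4 TPM at Puberty and at 36.9, 31.4 and 374 TPM in Pregnancy.

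Within-library ratios of the TPM of related genes do not depend on how libraries are scaled. The log2 ratios tested below do so in part, through the 1 added to each TPM. TM7SF2 and LBR carry out the same sterol C14 reduction, and the TPM of TM7SF2 was 0.820 to 2.29 times that of LBR in 9 libraries and 56.4, 24.8 and 15.5 times it in Year 1 replicates 2 and 3 and Pregnancy replicate 3. INSIG1 was 0.851 to 1.64 times INSIG2 at Day 3, Puberty and in Pregnancy replicates 1 and 2, and 2.25, 3.01 and 8.40 times it in the Year 1 libraries and 8.49 times it in Pregnancy replicate 3. SREBF1 was below SREBF2 in every library, at 0.235 to 0.622 times its TPM, with the lowest ratios in Year 1 replicates 2 and 3. In an exact permutation test over all 369600 assignments of libraries to stages, the log2 ratios of TPM + 1 differed among stages with p = 0.0791 for TM7SF2 to LBR, p = 0.213 for INSIG1 to INSIG2 and p = 0.154 for SREBF1 to SREBF2, each with an adjusted p of 0.213 over the 3 ratios. On leaving out 1 library the adjusted p of the exact permutation test ran up to 0.494 for TM7SF2 to LBR and for SREBF1 to SREBF2. It was lowest without Year 1 replicate 1, at 0.0330 and 0.0111.

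**Figure D5:**
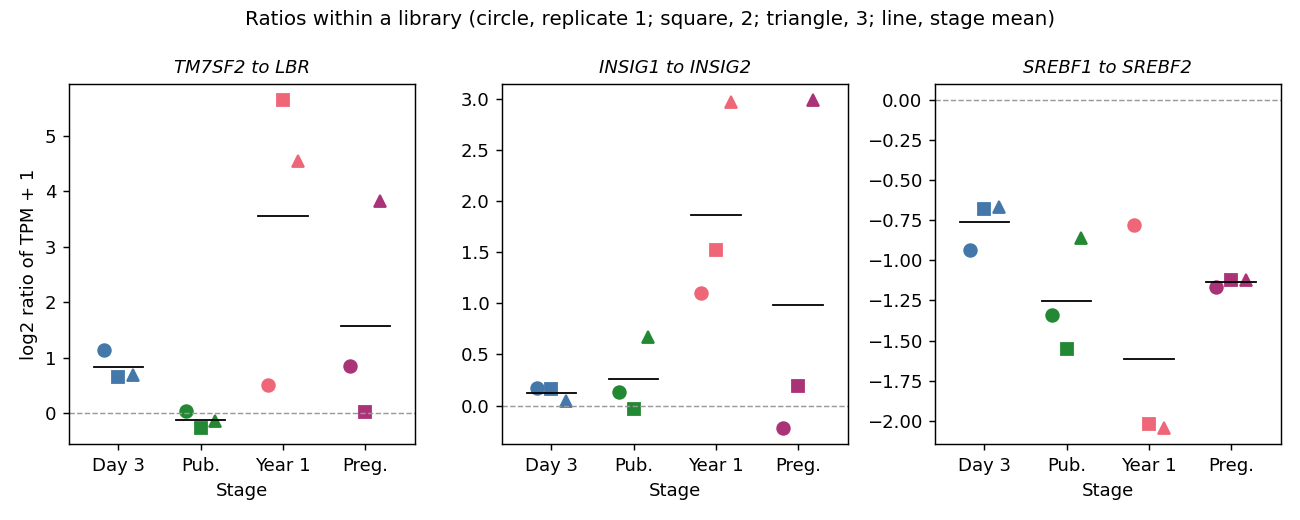
Log2 ratio of TPM + 1 of TM7SF2 to LBR, INSIG1 to INSIG2 and SREBF1 to SREBF2 (y axis) in every library by stage, with a marker shape for each replicate and a line at the stage mean. The TM7SF2 to LBR ratio reaches 5.65 and 4.54 in Year 1 replicates 2 and 3 and 3.83 in Pregnancy replicate 3, and is at most 1.13 elsewhere.

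Genes next to the pathway were taken from 3 further lists. The first list held 10 genes known as SREBP targets, most but not all of them genes of fatty acid metabolism. Of these 10, 5 rose and none fell in Year 1 against Day 3, beside 24.0% of all genes higher and 24.0% lower. Their median log2 change was 1.02. On log2(TPM + 1), 3 were called higher and 2 lower, beside 1023 higher and 7977 lower of all 15699 genes. The median there was 0.08, against -0.64 over all genes. SCD, which puts the first double bond into stearate, was at 15.6, 12.7 and 14.4 TPM at Day 3 and at 29.3, 135 and 149 TPM in Year 1 (log2 change 3.73 ± 0.88, edgeR adjusted p = 0.00605). FASN, the fatty acid synthase, was at 46.3, 39.5 and 50.01 TPM at Day 3 and at 63.2, 75.7 and 86.0 TPM in Year 1 (1.53 ± 0.28, edgeR adjusted p = 0.00165). FASN was thus much more even within Year 1 than SCD. ELOVL5, an elongase of polyunsaturated fatty acids, rose by 3.88 ± 0.89 in log2 scaled counts (edgeR adjusted p = 0.00542). ELOVL6, an elongase of saturated fatty acids, fell by 3.14 in Puberty against Day 3 (SE 0.95, edgeR adjusted p = 0.0310), a call lost in 5 of 12 fits that left out 1 library (Day 3 replicate 2 or 3, or any 1 Puberty library), with edgeR adjusted p up to 0.0910. FABP5, a fatty acid carrier, was the gene of this list called in Pregnancy against Year 1, with a rise of 1.63 ± 0.20 (edgeR adjusted p = 0.0269). Its level was 39.4, 29.7 and 32.9 TPM in Year 1 and 121, 109 and 119 TPM in Pregnancy, so the 3 pregnant ovaries were alike for FABP5. The FABP5 call was lost without any 1 Day 3 library, Pregnancy replicate 1, Puberty replicate 2 or Year 1 replicate 2 or 3, with edgeR adjusted p up to 0.153, while its log2 change stayed between 1.55 and 1.70. With the replicate block the edgeR adjusted p was 0.0871, and with only these 2 stages fitted it was 0.289.

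Of 11 enzymes that use isoprenoids for dolichol, ubiquinone and protein prenylation, 4 were called higher and 1 lower in Year 1 against Day 3, beside 24.0% and 24.0% of all genes, with a median log2 change of 0.40 on scaled counts. On log2(TPM + 1), 0 were called higher and 5 lower, beside 1023 higher and 7977 lower of all 15699 genes. The median there was -0.33, against -0.64 over all genes. DHDDS, a subunit of the dolichol chain synthase, fell by 0.70 (SE 0.24, edgeR adjusted p = 0.0320), a call lost without Day 3 replicate 2 or 3 or Year 1 replicate 1, with edgeR adjusted p up to 0.104. Its partner NUS1 rose by 1.22 ± 0.28 on scaled counts (edgeR adjusted p = 0.00486) and had a log2 change of 0.35 on log2(TPM + 1) (limma adjusted p = 0.178). DHDDS also fell by 1.24 in Puberty against Day 3 (SE 0.24, edgeR adjusted p = 0.00430). Of 10 measured genes of SREBP cleavage and transport and of sterol-regulated protein breakdown, 3 were called higher and 0 lower in Year 1 against Day 3, beside the same 24.0% and 24.0%, with a median log2 change of 0.51 on scaled counts. On log2(TPM + 1), 1 was called higher and 3 lower, beside the same 1023 higher and 7977 lower over all genes. There 9 of the 10 changes were negative, with a median of -0.30 against -0.64 over all genes. In edgeR on scaled counts no gene of these 3 lists was called in Year 1 against Puberty or in Pregnancy against Puberty, and FABP5 was the 1 gene called in Pregnancy against Year 1.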

How the data were processed

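Whole-ovary mRNA was sequenced in 12 libraries (3 per stage), and 12 small RNA libraries were not analysed here. RSEM 1.3.1, Bowtie2 2.3.4.3, DESeq2 1.4.5 and the build Sscrofa11.1 are named in the submitters' processing notes. The authors deposited 1 table, whose file headers give read counts, TPM, log2 fold changes and q-values per gene. Its read counts are expected counts per the deposited values: 93.0% to 94.7% per library were exactly whole as deposited, with no tolerance. The deposited TPM were used as levels. The deposited q-values were counted only where named, with the deposited log2 fold changes giving their direction.

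Expected counts were rounded and tested with edgeR 4.0.16 in R 4.3.3 (TMM, filterByExpr with a minimum count of 10, quasi-likelihood fit of all 12 libraries, threshold 0.05). The common dispersion was 0.401 as a square root. Alternatives were DESeq2 1.42.0, limma 3.58.1 voom, other scalings and filters, a replicate block and leaving out libraries; library totals only and log2(TPM + 1) were added after seeing the data. On counts simulated for the test among stages, the test recovered 7 of 67 genes at 2-fold, 45 of 67 at 4-fold and 55 of 66 at 8-fold, and made 7 calls among 15206 unchanged genes. No 2 libraries of the same stage agreed within sampling noise. Every gene of the set is named by role, and TPM is written out by library for those called, those with over 4-fold range within a stage, and the related pairs; up to 4 genes per further list are named by lowest adjusted p, and 1 result among them is not reported here. Genes and lists were chosen with earlier results of these data known. Positions and overlaps come from RefSeq's Sscrofa11.1 table, which matched all 18753 gene IDs.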

Additional observations from a re-analysis of the deposited data

How the results depend on the processing

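Members called are given here as counts of the 26 genes, for the comparisons named. With DESeq2 the counts were 3 in Puberty against Day 3, 16 in Year 1 against Puberty, 6 in Pregnancy against Year 1 and 7 in Pregnancy against Day 3, beside 36.2%, 21%, 18.4% and 41% of all genes. With limma's voom and quality weights they were 5, 24, 24 and 9, beside 58.7%, 59.6%, 56.2% and 55.4%. In Year 1 against Day 3 DESeq2 called 17 (beside 53.8% of all genes) and voom 25 (72.8%). Among stages DESeq2 called 17 (60.1%) and voom 26 (86.9%). On log2(TPM + 1) they were 7 among stages, 3 in Puberty against Day 3, 2 in Year 1 against Puberty, 10 in Year 1 against Day 3 and 2 in Pregnancy against Day 3, beside 55%, 33%, 11.5%, 57.3% and 42.6% of all genes. Library totals only gave 15 among stages (44%), 3 in Puberty against Day 3 (27%), 16 in Year 1 against Day 3 (50.3%) and 2 in Pregnancy against Day 3 (30.7%). RLE and upper-quartile scaling each gave 2 in Pregnancy against Day 3 (32.3% and 31.1%), and a minimum count of 50 gave 2 there (32.5%) and 1 in Pregnancy against Year 1 (4.62%). Fitting only the stages compared gave 11 in Puberty against Day 3 (51.2%) and 19 in Year 1 against Day 3 (44.6%). GGPS1 in Year 1 against Day 3 reversed to -0.033 on log2(TPM + 1), where the log2 change of a gene differed from that with TMM by a median of -0.76 over all genes. That median was -0.59 with library totals and -0.23 with upper-quartile scaling. Over all genes called on log2(TPM + 1), 732 were higher and 4455 lower in Puberty against Day 3 (1807 and 2702 with TMM), and 460 were higher and 6227 lower in Pregnancy against Day 3 (2494 and 2841 with TMM).

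Without Year 1 replicate 1 and Pregnancy replicate 3 together the counts were 14 in Puberty against Day 3, 23 in Year 1 against Puberty, 24 in Pregnancy against Year 1 and 11 in Pregnancy against Day 3, beside 52.3%, 51.6%, 50% and 46.8% of all genes. Leaving out 1 library gave 5 to 24 genes among stages, beside 28.7% to 65.9% of all genes. It gave 0 to 3 in Puberty against Day 3 (16.7% to 38.1%) and 0 to 21 in Year 1 against Puberty (0% to 38.3%). In Pregnancy against Year 1 it gave 0 to 20 (0% to 30.6%), and in Year 1 against Day 3 12 to 22 (35.2% to 58.9%). The count was 0 to 12 in Pregnancy against Day 3 (20.8% to 44%) and 0 in Pregnancy against Puberty (0%). On leaving out 1 library the adjusted p of the exact permutation test ran from 0.0111 to 0.494 for the SREBF1 to SREBF2 ratio and from 0.0330 to 0.494 for TM7SF2 to LBR, lowest without Year 1 replicate 1. With the replicate block the counts were 12 among stages and 2 in Pregnancy against Day 3, beside 39.6% and 30.2% of all genes. Over 18 pairs of libraries of different stages with the same replicate number, the correlation of deviations ran from -0.38 to 0.39 and was over 0.1 in 5. Pairs with different numbers reached -0.50 (Year 1 replicate 1 with Pregnancy replicate 3) and 0.47 (Year 1 replicate 2 with Pregnancy replicate 3). With 3 libraries per stage the deviations within a stage are tied to each other, so this check cannot decide whether replicate numbers pair the sows. The cause of these moves was not tested. STARD4 had the lowest single count of the set, 86, and 1346 counts in its highest library. PMVK (108 to 436 counts) and INSIG2 (260 to 419 counts) had lower highest counts than STARD4.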
